A study of Mus musculus with 6 samples.

Results

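Messenger RNA of 10 sarcomere genes was compared in the hearts of mice of 3 groups, with 2 libraries in each group and 6 in all. The genes were taken from a list of names and matched by symbol, and each of the 10 was found once among the 24346 genes with a value. *Myl2* and *Myl3* are enriched in the ventricle, and the other 8, *Myh6*, *Mybpc3*, *Tnnt2*, *Tnni3*, *Tnnc1*, *Actc1*, *Tpm1* and *Ttn*, are used in all chambers. The animals were male C57BL/6J mice. Those of the C group ate normal chow. Those of the N group ate the NASH diet, a steatohepatitis diet rich in fat, cholesterol and sucrose with added bile acid. Those of the NP group ate this diet with 0.1 mg/kg pemafibrate, a selective modulator of the nuclear receptor PPARα. The sample labels give 3 weeks of feeding, whereas the methods of the study give a longer time. The tissue is given as heart, whereas the extraction text in the labels mentions liver, and neither source states the age of the mice, which chambers were taken or whether a library held RNA of 1 animal. When 2 values are given for a group, replicate 1 stands first. The comparison of N with C addresses the diet, NP with N the drug on that diet, and NP with C what differed from chow under both.

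The sarcomere is the contractile unit of heart muscle. Thick filaments are built of myosin, whose heavy chain carries the motor and whose neck binds an essential and a regulatory light chain. Thin filaments are built of actin and tropomyosin, and the troponin complex on them makes contraction depend on calcium, while titin spans from the Z-disc to the M-band as a molecular spring. Atrial and ventricular cardiomyocytes share most of these proteins but carry different light chains, *Myl7* and *Myl4* in the atrium and *Myl2* and *Myl3* in the ventricle, so that the pair of light chains tells the chambers apart.

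Values are FPKM, fragments counted per length of transcript and per mapped fragments of the library, so that levels of different genes can be compared per length. The depth of each library was estimated from the steps between low FPKM values. The estimates were 26000000 and 21300000 reads on chow, 8670000 and 8720000 on the NASH diet and 8210000 and 8450000 with pemafibrate. Depth and diet therefore cannot be told apart in the comparisons with the C group. The sarcomere genes are so abundant that counting error is small at any of these depths, and the spread between the 2 libraries of a group limits the precision. Replicate 2 of the C group stood apart by its liver transcripts. Albumin (*Alb*) had an FPKM of 211 in it, 10.8 in replicate 1 of that group and between 0.555 and 2.04 in the N and NP libraries. The summed FPKM of 6 liver genes was 30.9 and 438 on chow, 31.1 and 17.98 on the NASH diet and 9.77 and 12.8 with pemafibrate. The most abundant of the 6 was *Alb* in the C libraries and *Cyp2e1* in the N and NP libraries, with an FPKM of 29.9 and 15.9 on the NASH diet. The part of these transcripts in the results was not tested, and the differences of *Myl2* and *Myl3* are given below also without replicate 2 of the C group.

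The 10 genes lie on chromosomes 1, 2, 5, 7, 9 and 14. In the RefSeq annotation of GRCm38.p6, the assembly called mm10, *Myl2* lies at chr5:122092724-122113473, *Myl3* at chr9:110763678-110769802, *Mybpc3* at chr2:91118114-91136516, *Actc1* at chr2:114047282-114052875 and *Ttn* at chr2:76703980-76982557. All 10 matched a RefSeq promoter window of 250 bases before to 50 bases after the annotated start. These windows were searched on both strands for 4 motifs known from muscle genes: the CArG box known from serum response factor, the sequence TATAAA of the TATA box at any position, the MCAT motif (CATTCC) and a GATA motif (GATAAG). The CArG box was found in 535 of 32851 windows of all genes, or 1.63%, and in 2 of the 10 genes, *Myl3* and *Actc1*. The other motifs are more common, at 13.6%, 14.7% and 7.44% of windows, and were found in 3, 6 and 2 of the 10 genes. The shares count windows, and *Myl2* and *Tnnt2* have 2 windows each. From the RefSeq start, TATAAA lay at 2 to 7 in *Myh6*, at 34 to 39 in *Actc1* and at -216 to -211 on the opposite strand in *Myl2*. *Myl3* and *Actc1* are shown because they share the CArG box while their log2 differences between N and C were far apart, and *Myl7* is shown as the atrial light chain with the same motif. The stretches run 5′ to 3′ on the strand of the gene and end before the first annotated start, and capitals mark the CArG box. Counted back from the RefSeq start, it lies at -85 to -76 in *Myl3* (chr9:110763428-110763645, plus strand), at -47 to -38 in *Actc1* (chr2:114052888-114053125, minus strand) and at -61 to -52 in *Myl7* (chr11:5898783-5899032, minus strand). A match is a description of the sequence and not of a bound site. The windows of *Myl2* are not shown, because its RefSeq starts lie 7762 and 8227 bases from its first GENCODE start.
Myl3: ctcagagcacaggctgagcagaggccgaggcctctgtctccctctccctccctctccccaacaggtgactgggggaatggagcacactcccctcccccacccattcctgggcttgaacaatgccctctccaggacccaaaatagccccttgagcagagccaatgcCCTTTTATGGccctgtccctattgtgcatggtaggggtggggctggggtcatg
Actc1: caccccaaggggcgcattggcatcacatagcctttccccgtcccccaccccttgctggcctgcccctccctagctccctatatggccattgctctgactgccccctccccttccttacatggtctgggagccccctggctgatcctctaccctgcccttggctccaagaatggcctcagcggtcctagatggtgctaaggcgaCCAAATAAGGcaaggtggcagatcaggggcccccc
Myl7: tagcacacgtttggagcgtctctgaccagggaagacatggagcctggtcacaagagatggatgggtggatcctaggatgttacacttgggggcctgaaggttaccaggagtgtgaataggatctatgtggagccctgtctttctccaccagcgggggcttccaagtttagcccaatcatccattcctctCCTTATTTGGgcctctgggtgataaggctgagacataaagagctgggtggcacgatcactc

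In these hearts *Myl2* was the most abundant of all genes by its mean FPKM over the 6 libraries, 18304. *Tpm1* (10749), *Actc1* (9760.5), *Tnnt2* (8438), *Tnni3* (7357), *Myl3* (7047), *Myh6* (5284) and *Tnnc1* (3729) followed among the 13 most abundant genes. *Mybpc3* had a mean of 1088 and *Ttn* one of 93.6. The order was not the same in each library: *Tnni3* lay below *Myl3* in the C libraries and above it in the N libraries and in both NP libraries. Together the 10 genes made up 13.01% and 13.1% of all FPKM on chow, 11.03% and 11.2% on the NASH diet and 11.6% and 12.5% with pemafibrate. *Myl2* was the most abundant gene in 4 of the 6 libraries and came after 1 other gene in replicate 1 of N and of NP.

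**Figure D1:**
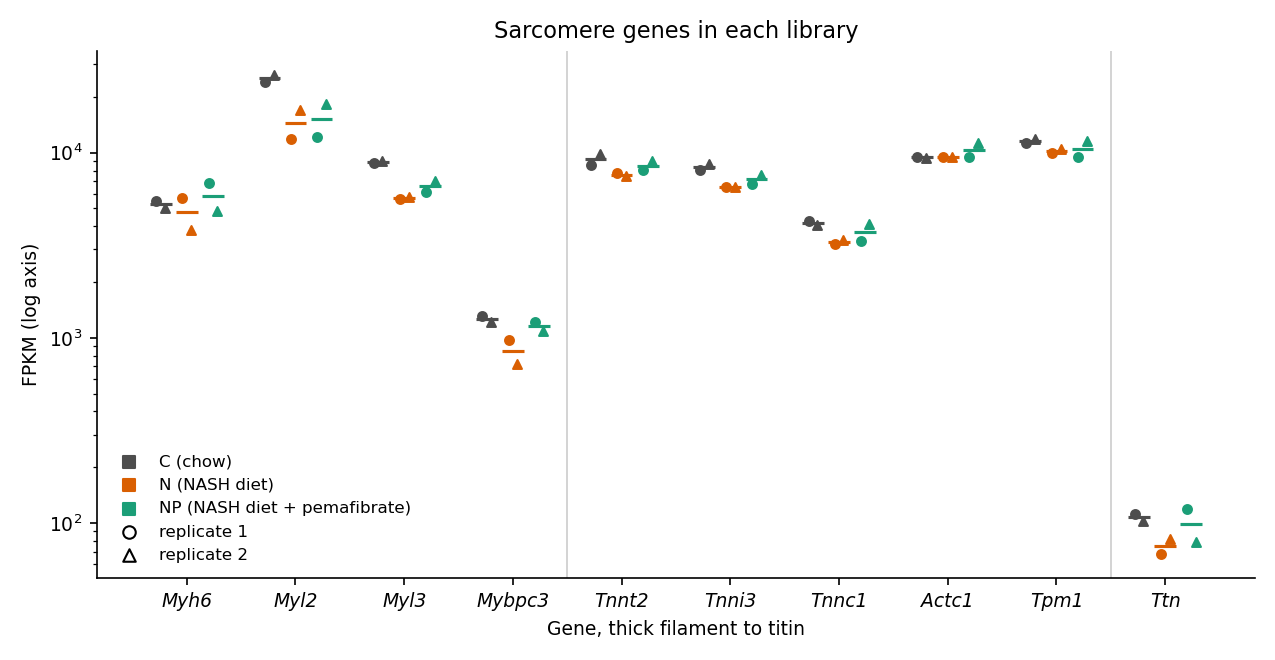
FPKM of the 10 genes on a log axis, with a point for each library, its shape for the replicate number and a short line for the mean of the group. *Myl2* and *Myl3* of the N and NP libraries sit below those of the C libraries, whereas *Actc1* sits near 9444 in both the C and N groups.

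Of the 10 genes, the ventricular light chains lay furthest below chow in the N group, with a mean FPKM that differed by -42.7% for *Myl2* and -36.2% for *Myl3*. *Mybpc3* and *Ttn*, which are not chamber-specific, came next at -32.7% and -30.1%, and the troponins, *Tpm1*, *Myh6* and *Actc1* lay closer to chow. This order did not hold in every setting. Without replicate 1 of N the log2 differences were -0.80 for *Mybpc3*, -0.63 for *Myl3* and -0.56 for *Myl2*. Under quantile normalization they were -0.43 for *Ttn*, -0.35 for *Myl3*, -0.30 for *Mybpc3* and -0.15 for *Myl2*. For 8 of the 10 genes both N libraries lay below both C libraries, which held for 27% of the 12923 genes tested. None of the 10 passed an adjusted *P* value of 0.05 in limma without a replicate block and with Benjamini-Hochberg adjustment over all genes tested. Of all genes tested 1.55% passed it, 191 of them higher and 9 lower in N than in C. The calls of *Myl2*, *Myl3* and *Mybpc3* change in at least 1 fit with a block, as given in the closing section. Of the 10, 5 had an unadjusted *P* value under 0.05, as did 15% of all genes tested. The median log2 difference of the 10 genes was -0.35, against -0.031 for all genes tested, and it lay above 0 under quantile normalization and under centring on other cardiomyocyte genes. Differences are on the log2(FPKM + 1) scale, where the added 1 is negligible for these genes. The labels do not say whether the replicates are separate animals, so that the *P* values measure the spread between these samples. Replicates 1 and 2 of the N and NP groups were supplied under names of different kinds, of which only those of replicate 2 mention 3 weeks, and whether this marks a batch or a feeding time is not stated. With 2 libraries against 2, the smallest two-sided *P* value of an exact permutation test is 0.333, and that test was not used. Fewer cardiomyocytes in the tissue and less of an RNA per cardiomyocyte cannot be told apart in these libraries.

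*Myl2* encodes the regulatory light chain of the ventricle. Its FPKM was 24052 and 26366 on chow, 11855 and 17042 on the NASH diet and 12145 and 18366 with pemafibrate. The N and NP libraries lay below the C libraries without overlap, and in both groups replicate 1 lay further from chow than replicate 2. The mean was 25209 ± 1636 in the C group and 14448 ± 3667 in the N group (SD, n = 2). The log2 difference was -0.83 (SE, standard error, 0.26, 95% interval -1.46 to -0.19, adjusted *P* in limma = 0.228). It was -0.76 without replicate 2 of the C group, and -0.15 after quantile normalization, which takes a value from its rank, and *Myl2* ranked first or next to it in each library. With a replicate block its adjusted *P* value in limma was 0.0503. With a block for N and NP alone, chosen after the data were seen, that value was 0.0136.

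*Myl3* encodes the essential light chain of the ventricle. Its FPKM was 8779.6 and 8983 on chow, 5591 and 5739.8 on the NASH diet and 6131 and 7054 with pemafibrate. The 3 groups did not overlap, with N lowest and NP between N and C. Its log2 difference between the N and C groups was -0.65 (SE 0.12, 95% interval -0.95 to -0.35, adjusted *P* in limma = 0.0803), and -0.63 without replicate 2 of the C group. Although it was smaller than that of *Myl2*, it had the lowest adjusted *P* value of the 10 genes in this fit, because its replicates differed less. With a replicate block the adjusted *P* value of *Myl3* in limma was 0.0339. With a block for N and NP alone, chosen after the data were seen, that value was 0.0198.

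*Mybpc3* encodes cardiac myosin-binding protein C, which lies along the thick filament and tunes its interaction with actin. Its FPKM was 1316 and 1211 on chow, 974 and 725 on the NASH diet and 1209.7 and 1094 with pemafibrate. Both N libraries lay below the other 4, and the NP libraries lay just below the C libraries. The log2 difference between the N and C groups was -0.59 (SE 0.17, adjusted *P* in limma = 0.197), and -0.37 without replicate 2 of the N group. With a replicate block the adjusted *P* value of *Mybpc3* in limma was 0.0613. With a block for N and NP alone, chosen after the data were seen, that value was 0.0323. *Myh6* encodes the α-myosin heavy chain, the main motor of the adult mouse heart in atria and ventricles. Its FPKM was 5501 and 5024 on chow, 5671 and 3841 on the NASH diet and 6856 and 4814 with pemafibrate. The groups overlapped, replicate 1 lay above replicate 2 in each of them, and the log2 difference was -0.17 (SE 0.25, adjusted *P* in limma = 0.810), which turned to 0.11 without replicate 2 of the N group. The ratio of *Mybpc3* to *Myh6*, which does not depend on the scaling of a library, was 0.239 and 0.241 on chow, 0.172 and 0.189 on the NASH diet and 0.176 and 0.227 with pemafibrate, and both N libraries lay below both C libraries in it.

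Among the thin filament genes, *Tnni3* encodes the inhibitory subunit of cardiac troponin. Its FPKM was 8022 and 8669.7 on chow, 6556 and 6505 on the NASH diet and 6788 and 7602 with pemafibrate, with the N libraries lowest and no overlap between the 3 groups. *Tnnt2*, the subunit that binds tropomyosin, had 8599 and 9822 on chow, 7747 and 7466 on the NASH diet and 8031 and 8964 with pemafibrate, where the NP libraries overlapped with the C libraries. *Tnnc1*, the calcium-binding subunit, had 4292 and 4046 on chow, 3211 and 3356 on the NASH diet and 3346 and 4125 with pemafibrate, again with both N libraries below both C libraries. The log2 differences between the N and C groups were -0.35, -0.27 and -0.34 with SE of 0.12, 0.13 and 0.14 (adjusted *P* in limma = 0.257, 0.397 and 0.328), and that of *Tnnt2* was -0.18 without replicate 2 of the C group. The 3 subunits form one complex, and the ratio of *Tnni3* to *Tnnt2* in FPKM was 0.933 and 0.883 on chow, 0.846 and 0.871 on the NASH diet and 0.845 and 0.848 with pemafibrate. Both C libraries lay above the other 4 in it. The ratio of *Tnnc1* to *Tnnt2* was 0.499 and 0.412 on chow, 0.414 and 0.4496 on the NASH diet and 0.417 and 0.4602 with pemafibrate, with overlap between the groups.

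*Actc1* encodes cardiac α-actin, the core of the thin filament. Its FPKM was 9485 and 9404 on chow, 9433 and 9455 on the NASH diet and 9462 and 11324 with pemafibrate. The N and C libraries overlapped, with means of 9444 ± 57.2 on chow and 9444 ± 15.8 on the NASH diet (SD, n = 2), while replicate 2 of NP lay highest. The 95% interval of the log2 difference was -0.32 to 0.32. *Tpm1* encodes α-tropomyosin, which lies along actin and blocks or frees the sites for myosin. It had an FPKM of 11219 and 11788 on chow, 10006 and 10443 on the NASH diet and 9479 and 11558 with pemafibrate. Both N libraries lay below both C libraries, and replicate 1 of NP lay lowest of all. The log2 difference between N and C was -0.17 (SE 0.14, adjusted *P* in limma = 0.623). Cardiac and skeletal actin, and likewise the α- and β-myosin heavy chains, are similar in sequence, so that reads may be split between *Actc1* and *Acta1* and between *Myh6* and *Myh7*, and their values are uncertain to that extent.

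*Ttn* encodes titin. Its FPKM was 112 and 103 on chow, 68.03 and 81.8 on the NASH diet and 119 and 78.9 with pemafibrate. Both N libraries lay below both C libraries, while replicate 1 of NP lay above the C libraries and replicate 2 lay between the N libraries. The log2 difference between the N and C groups was -0.52 (SE 0.21, 95% interval -1.04 to 0.003, adjusted *P* in limma = 0.336).

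These positions relative to chow depended in part on how libraries were scaled. Of 19 other settings run, 11 can move the difference itself. *Myl2*, *Myl3*, *Mybpc3* and *Ttn* lay below chow in the N group under all 19, whereas the other 6 genes lay above it under at least 1. When the FPKM of each library were scaled to the same total, the median of all genes moved from -0.031 to 0.12 between N and C, and to 0.13 between NP and C. *Myl2* and *Myl3* then had differences between N and C of -0.65 and -0.47. Centring on the median of 18 other cardiomyocyte genes moved the median of all genes to 0.40 between N and C and to -0.31 between NP and N. It gave -0.40 for *Myl2*, -0.22 for *Myl3*, -0.16 for *Mybpc3* and -0.09 for *Ttn* between N and C, while the other 6 genes lay between 0.074 and 0.43. With the deviation of the same genes from their own means as the centre, a setting chosen after the data were seen, the medians of all genes were 0.29, -0.14 and 0.14 in the comparisons of N with C, NP with N and NP with C.

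**Figure D2:**
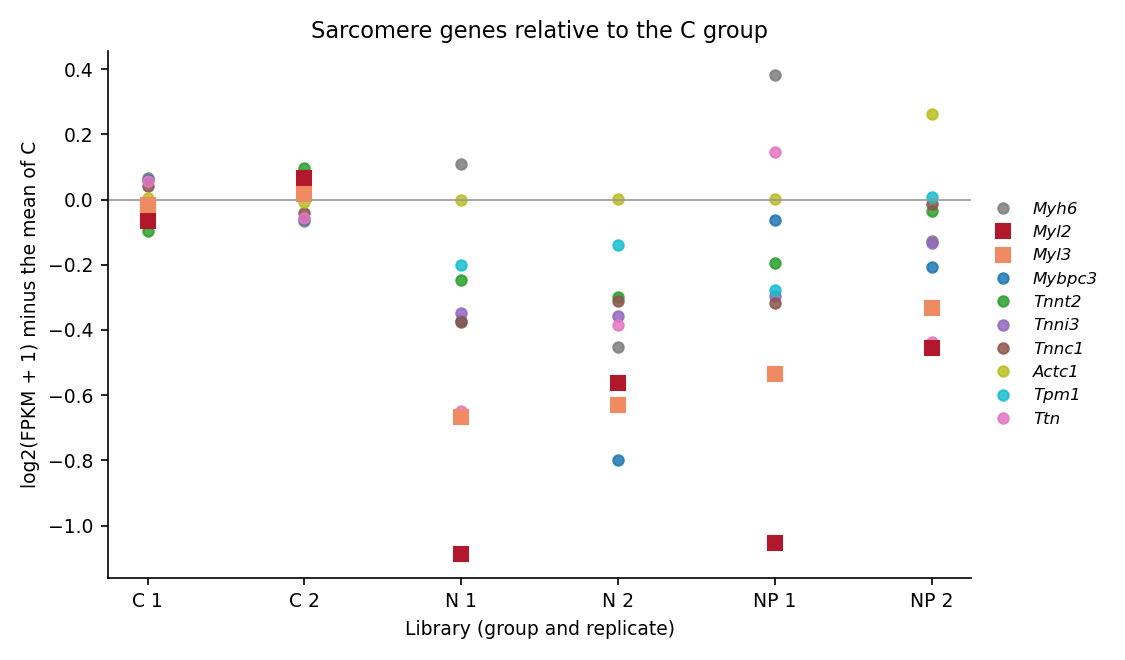
Log2(FPKM + 1) of each gene minus its mean in the C group, by library (squares for the ventricular light chains, circles for the other genes). *Myl2* is the lowest point of replicate 1 in the N and NP groups, at -1.09 and -1.05, while *Mybpc3* is the lowest of N replicate 2 at -0.80, and the positions of *Tnnt2*, *Tnni3*, *Tnnc1*, *Tpm1*, *Myh6* and *Actc1* relative to 0 in the N group change with the scaling of the libraries.

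With pemafibrate compared to the NASH diet alone all 10 genes had log2 differences above 0, between 0.034 for *Tpm1* and 0.45 for *Mybpc3*, and 8 of them lay below 0 under at least 1 other setting. *Mybpc3* and *Ttn* lay above 0 under all 19. Both NP libraries lay above both N libraries for 5 of the 10, *Myl3*, *Mybpc3*, *Tnnt2*, *Tnni3* and *Actc1*, which held for 15.2% of all genes tested. None passed the adjusted threshold in limma with Benjamini-Hochberg adjustment, against 1.39% of all genes, and those 179 genes were all lower in NP. Of the 10, 1 gene, *Mybpc3*, had an unadjusted *P* value under 0.05, as did 8.04% of all genes. Its mean FPKM was 849.7 ± 176 on the NASH diet and 1152 ± 81.8 with pemafibrate (SD, n = 2), a log2 difference of 0.45 (SE 0.17, adjusted *P* in limma = 0.547). This difference was 0.24 without replicate 2 of N and 0.12 under centring on other cardiomyocyte genes. For *Myl2* the difference was 0.071 with a 95% interval of -0.57 to 0.71 (adjusted *P* in limma = 0.996), which turned to -0.19 without replicate 1 of N and -0.23 without replicate 2 of NP. It was 0.33 without replicate 2 of N and 0.37 without replicate 1 of NP. For *Myl3* it was 0.22 with -0.082 to 0.51 (adjusted *P* in limma = 0.838), and 0.11 without replicate 2 of NP. The median of the 10 genes was 0.17, against 0.025 for all genes, and it turned to -0.17 under centring on other cardiomyocyte genes.

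Between the NP and C groups both NP libraries lay below both C libraries for 4 of the 10 genes, *Myl2*, *Myl3*, *Mybpc3* and *Tnni3*, which held for 23% of all genes tested. None passed the adjusted threshold in limma with Benjamini-Hochberg adjustment, against 0.0387% of all genes, and those 5 genes were all higher in NP. *Myl2* and *Myl3* had an unadjusted *P* value under 0.05, as did 8.05% of all genes. The mean of *Myl2* was 15255 ± 4399 in the NP group (SD, n = 2), a log2 difference from chow of -0.75 (SE 0.26, adjusted *P* in limma = 0.557). That of *Myl3* was 6593 ± 653, a difference of -0.43 (SE 0.12, adjusted *P* in limma = 0.507). Without replicate 2 of the C group these differences were -0.69 and -0.42, and that of *Myl2* was -0.46 without replicate 1 of NP. Under quantile normalization they were -0.15 for *Myl2* and -0.16 for *Myl3*. That of *Myl3* was -0.25 when each transcript length class was centred on its own median. The 8 other genes lay between -0.22 for *Tnni3* and 0.13 for *Actc1*, which were -0.13 without replicate 1 of NP and 0.0027 without replicate 2 of NP. *Myl2* and *Myl3* lay below chow and *Actc1* above it under all 19 settings, and the other 7 genes changed side under at least 1. The comparison shares its C libraries with that of N and C, and its NP libraries with that of NP and N.

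**Figure D3:**
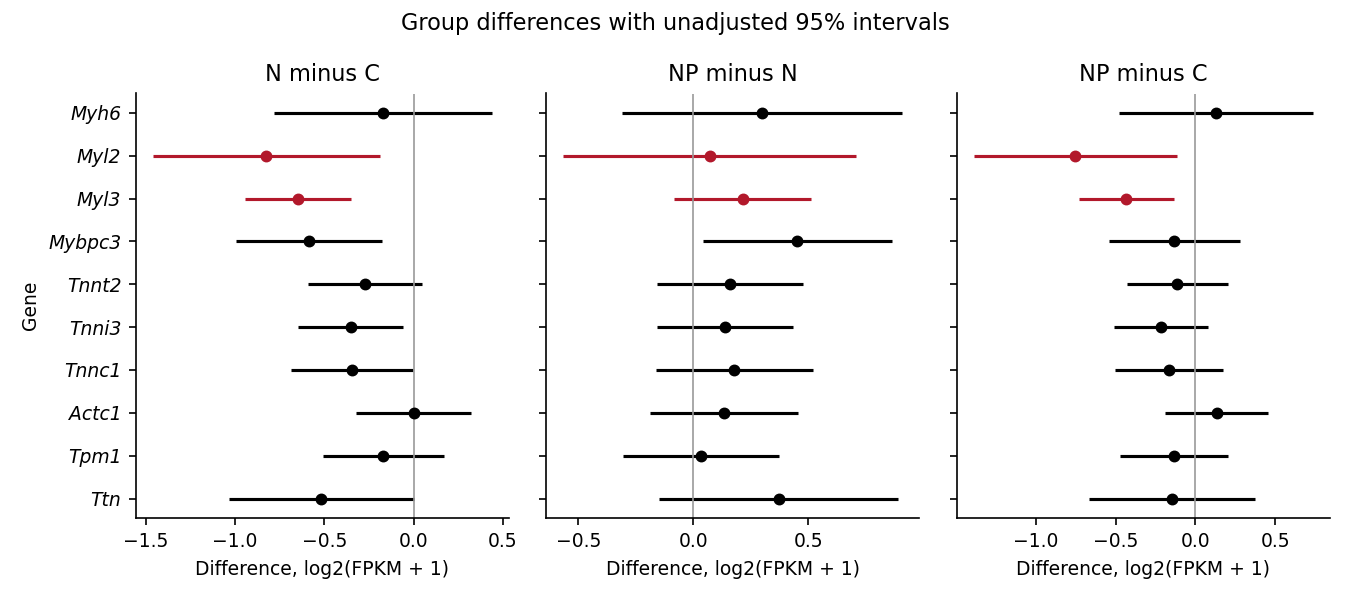
Log2 differences of the 10 genes in the 3 comparisons (points) with unadjusted 95% intervals from limma (lines), the ventricular light chains in red. The intervals of *Myl2* and *Myl3* lie below 0 in both comparisons with chow and include 0 between NP and N. Those of *Mybpc3*, *Tnni3* and *Tnnc1* also lie below 0 between N and C, and that of *Mybpc3* lies above 0 between NP and N. None of the differences passed the adjusted threshold in this fit, which has no replicate block. In the panel of N and C, the side of 0 changes under at least 1 other setting except for *Myl2*, *Myl3*, *Mybpc3* and *Ttn*. The exceptions are *Mybpc3* and *Ttn* in that of NP and N, and *Myl2*, *Myl3* and *Actc1* in that of NP and C.

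The ventricle-enriched genes were then set against those of all chambers within each library, as the mean log2(FPKM + 1) of *Myl2* and *Myl3* minus that of the other 8 genes. A factor applied to a whole library leaves this value almost untouched. A shift that depends on transcript length or on level does not cancel in it, and *Myl2* and *Myl3* both have transcripts under 1000 bases. It was not computed after length centring or quantile normalization. The value was 2.03 and 2.12 on chow, 1.46 and 1.82 on the NASH diet and 1.36 and 1.77 with pemafibrate. All 4 libraries of the NASH diet lay below both C libraries, and the N and NP groups overlapped. The means were 2.08 ± 0.066 for C, 1.64 ± 0.26 for N and 1.56 ± 0.29 for NP (SD, n = 2). This is a description without a test, since the genes were chosen with results known. The difference between N and C was -0.44, and it was -0.25 without N replicate 1 and -0.62 without N replicate 2. Between NP and C it was -0.51, and -0.31 without NP replicate 1. Between NP and N it was -0.077 and turned to 0.10 without replicate 2 of N and 0.13 without replicate 1 of NP, and it was -0.26 without replicate 1 of N and -0.28 without replicate 2 of NP. With *Ttn* and *Myh6* left out of the reference, the difference was -0.45 between N and C and -0.039 between NP and N. The pair was not in a fixed ratio, since that of *Myl2* to *Myl3* in FPKM was 2.74 and 2.94 on chow, 2.12 and 2.97 on the NASH diet and 1.98 and 2.603 with pemafibrate. In this ratio the N libraries overlapped with those of both other groups, both NP libraries lay below both C libraries, and replicate 1 lay below replicate 2 in each group. The ratio of *Myl3* to *Tnnt2*, a troponin gene of all chambers, was 1.02 and 0.915 on chow, 0.722 and 0.769 on the NASH diet and 0.764 and 0.787 with pemafibrate, without overlap between chow and the libraries of the NASH diet. The split by chamber was not clean, since *Mybpc3* and *Ttn* had differences of -0.59 and -0.52, close to that of *Myl3*.

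The atrial light chains were higher in the N group than on chow by 7.85 for *Myl7* and 7.09 for *Myl4* on the log2 scale. *Myl7*, the atrial regulatory light chain, had an FPKM of 1.51 and 6.705 on chow, 857 and 1193 on the NASH diet and 781 and 1319 with pemafibrate. The difference between the N and C groups had an SE of 0.55 (adjusted *P* in limma = 0.00304). *Myl4*, the atrial essential light chain, had 2.14 and 6.71 on chow, 547 and 815 on the NASH diet and 554 and 1029 with pemafibrate, with an SE of 0.50 for the difference between N and C (adjusted *P* in limma = 0.00304). The C libraries were near 0 for both genes and each library of the NASH diet was far above them. Between NP and C the log2 differences were 7.85 and 7.26, with an adjusted *P* value in limma of 0.0222 for both genes. This value was between 0.00535 and 0.235 when 1 library was left out, and it was above 0.05 for both genes without replicate 1 or replicate 2 of N or of NP. Between NP and N the differences were 0.0052 for *Myl7* and 0.18 for *Myl4*, and both turned to the other side of 0 under other scalings.

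As a share of the regulatory light chains, *Myl7* made up 0.00626 and 0.0254 on chow, 6.74 and 6.54 on the NASH diet and 6.05 and 6.698 with pemafibrate in percent of the FPKM of *Myl2* and *Myl7*. The share of *Myl4* among the essential light chains, again in percent, was 0.0244 and 0.0746 on chow, 8.91 and 12.4 on the NASH diet and 8.28 and 12.7 with pemafibrate. In both pairs the ventricular gene was the main one in each of the 6 libraries. The sum of *Myl2* and *Myl7* was 24054 and 26373 on chow, 12713 and 18235 on the NASH diet and 12926 and 19684 with pemafibrate. The sum of *Myl3* and *Myl4* was 8782 and 8989.6 on chow, 6138 and 6555 on the NASH diet and 6685 and 8083 with pemafibrate.

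**Figure D4:**
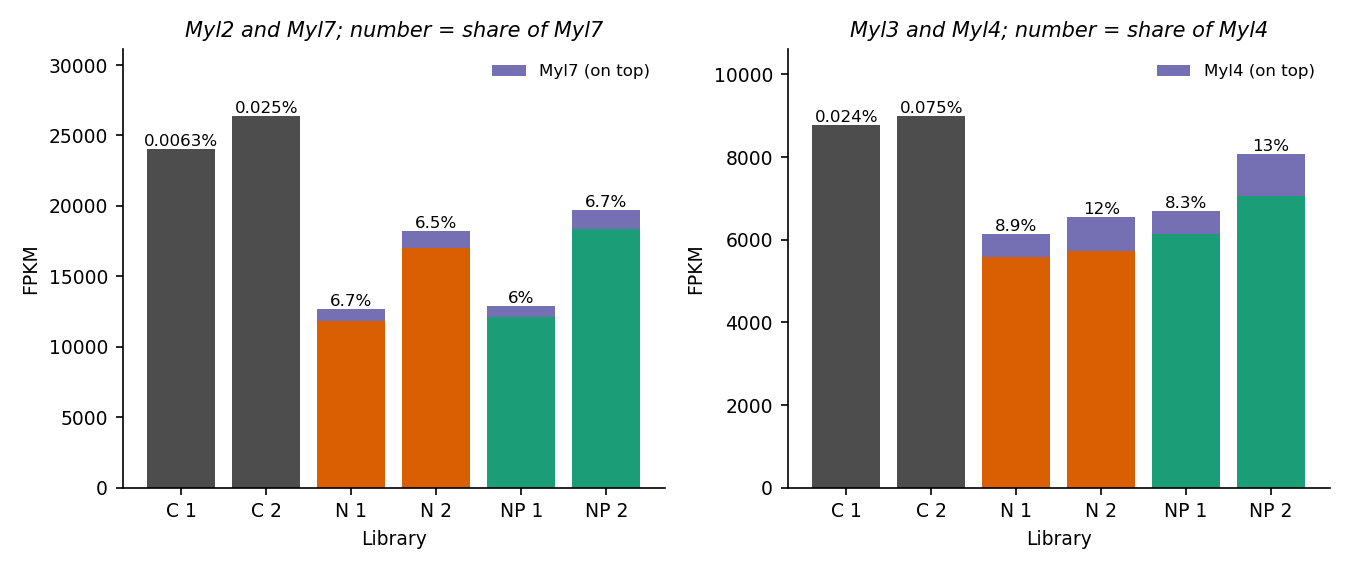
FPKM of the regulatory light chains *Myl2* and *Myl7* (left) and the essential light chains *Myl3* and *Myl4* (right) in each library, stacked, with the share of the atrial gene in percent above each bar. The atrial share is at most 0.0746% on chow and between 6.05% and 12.7% in the 4 libraries of the NASH diet.

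The level of other atrial genes on chow varied. *Nppa*, atrial natriuretic peptide, had an FPKM of 303 and 158 there, *Stard10* had 23.8 and 38.02, and *Nr2f1* had 1.53 and 1.22 on chow and 1.47 and 1.0796 on the NASH diet. Of 11 atrial markers, *Myl7* and *Myl4* included, 8 were higher in N than in C in limma after Benjamini-Hochberg adjustment and none was lower, against 1.55% of all genes that passed in either direction, with a median log2 difference of 3.83 for the list. The list was chosen with earlier results of these data known, so that its counts are a description. Without replicate 2 of C, replicate 1 of N or replicate 2 of N, 5 of the 11 passed, and 6 passed when replicate 1 of C or either replicate of NP was left out. Their summed FPKM was 343 and 228 on chow, 3843 and 5395 on the NASH diet and 3932 and 6447 with pemafibrate, and the most abundant was *Nppa* in each library. *Sln*, the atrial inhibitor of the calcium pump, was listed at 0 in C replicate 1 and had 0.4495 in C replicate 2, against 250.3 and 462 on the NASH diet and 287 and 518 with pemafibrate. *Bmp10*, a growth factor of the atrium, was likewise listed at 0 in C replicate 1 and had 18.5 and 59.7 on the NASH diet. Between NP and N 0 of the 11 passed in limma and 0 had an unadjusted *P* value under 0.05, and the median of 0.18 turned to the other side of 0 under centring on other cardiomyocyte genes. Between NP and C 4 of the 11 passed, all higher, against 0.0387% of all genes, and 2 passed with either NP library left out. *Myl7*, *Myl4*, *Sln*, *Bmp10* and *Mybphl* were at no more than 6.71 in the C libraries and at 18.5 or more in all 4 libraries of the NASH diet, so that the diet and the content of atrial tissue cannot be told apart in the comparisons with the C group.

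Markers of the ventricle other than the light chains overlapped between the groups for the most part. *Irx4*, a transcription factor of ventricular cardiomyocytes, had an FPKM of 9.26 and 11.1 on chow, 10.4 and 12.6 on the NASH diet and 8.68 and 13.2 with pemafibrate. The groups overlapped, and the log2 difference between N and C was 0.16 (SE 0.21, adjusted *P* in limma = 0.792). *Pln*, the calcium pump regulator phospholamban, which is more abundant in the ventricle, had 3029 and 3691 on chow, 2845 and 3565 on the NASH diet and 2981 and 3726 with pemafibrate, again with overlap. *Hey2*, a transcriptional repressor, and *Gja1*, the main connexin of the working ventricle, had log2 differences between N and C of -0.33 and 0.27, and *Hey2* alone of the 4 had both N libraries below both C libraries, with a difference that turned under centring on other cardiomyocyte genes. With 1 library left out, the differences ran from -0.47 to -0.19 for *Hey2*, 0.0046 to 0.54 for *Gja1* and 0.037 to 0.28 for *Irx4*. In each of the 3 comparisons 0 of the 4 ventricular markers passed in limma and 0 had an unadjusted *P* value under 0.05. Between N and C, NP and N, and NP and C, 15%, 8.04% and 8.05% of all genes had one, and 1.55%, 1.39% and 0.0387% passed. The ratio of *Myl2* to *Irx4* in FPKM was 2598 and 2370.2 on chow, 1135 and 1356 on the NASH diet and 1399 and 1389 with pemafibrate, so that *Myl2* lay below chow in each N and NP library relative to this marker too.

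The other genes of the sarcomere were taken from 4 lists with 43 genes in all, all of which could be tested. The lists were chosen with earlier results of these data known, so that their counts are a description. Between the N and C groups 3 of the 43 passed in limma, all higher, and these were the atrial genes *Myl7*, *Myl4* and *Mybphl*, against 1.55% of all genes tested. The median log2 difference was -0.13, with 32 of 43 genes below 0. Of the 43, 14 had an unadjusted *P* value under 0.05, as did 15% of all genes. Between NP and N 0 passed in limma, 4 had an unadjusted *P* value under 0.05, as did 8.04% of all genes, and the median was 0.12. Between NP and C 3 passed, again *Myl7*, *Myl4* and *Mybphl*, against 0.0387% of all genes, and the median was -0.056. Of the 43, 8 had an unadjusted *P* value under 0.05 there, as did 8.05% of all genes. With any 1 library of N or NP left out, 1 of the 43 passed between NP and C. All 3 medians lay on the other side of 0 under some scalings, among them centring on other cardiomyocyte genes.

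Among 12 other isoforms of sarcomere proteins, *Myh7*, the β-myosin heavy chain of the fetal and stressed mouse heart, had an FPKM of 26.4 and 29.3 on chow, 22.8 and 16.7 on the NASH diet and 33.6 and 36.8 with pemafibrate. The N libraries were lowest and the NP libraries highest, without overlap, and the difference between NP and N was 0.82 (SE 0.17, adjusted *P* in limma = 0.132). Its share in the FPKM of both heavy chains, in percent, was 0.478 and 0.5797 on chow, 0.401 and 0.432 on the NASH diet and 0.488 and 0.758 with pemafibrate, so that *Myh6* was the main heavy chain in each library. *Myh7b*, a related heavy chain, had 19.3 and 19.1 on chow, 8.17 and 5.96 on the NASH diet and 13.9 and 7.75 with pemafibrate and a difference between N and C of -1.34 (adjusted *P* in limma = 0.0973). With 1 library left out this difference ran from -1.54 to -1.14. *Tpm3*, a tropomyosin also found outside muscle, had 34.95 and 32.8 on chow, 51.04 and 51.99 on the NASH diet and 33.5 and 34.4 with pemafibrate. Both N libraries lay above the other 4, with log2 differences of 0.59 between N and C and -0.59 between NP and N (adjusted *P* in limma = 0.0612 and 0.0687). *Acta1*, skeletal α-actin, ranged from 91.9 to 245 within the C group alone, a range that held all other libraries. *Tnni1*, the slow skeletal troponin I, had an FPKM of 0.229 and 0.222 on chow, 1.095 and 0.689 on the NASH diet and 0.691 and 1.201 with pemafibrate, and all 4 libraries of the NASH diet lay above both C libraries. Its log2 difference between N and C was 0.62 (95% interval 0.14 to 1.10, adjusted *P* in limma = 0.2299), which the added 1 makes smaller than the ratio of the FPKM at so low a level.

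Of 15 genes of the Z-disc, where thin filaments of neighbouring sarcomeres are anchored, 0 passed in limma in each comparison, and 3, 0 and 2 had an unadjusted *P* value under 0.05 in those of N with C, NP with N and NP with C, against 15%, 8.04% and 8.05% of all genes tested. Their median log2 differences there were -0.17, 0.075 and -0.10, each of which changed side under some scalings. *Myoz2*, a calcineurin-binding protein of the Z-disc, had an FPKM of 1020.5 and 1069.5 on chow, 694 and 669.6 on the NASH diet and 728 and 822 with pemafibrate. Both N libraries lay lowest and the groups did not overlap, with a log2 difference between N and C of -0.61 (adjusted *P* in limma = 0.0772). *Xirp2*, an actin-binding protein, had one of -0.72 (adjusted *P* in limma = 0.101). *Actn2*, the α-actinin that crosslinks actin there, and *Tcap*, which binds the end of titin, overlapped between the groups, at 669 to 1076 and 1048 to 2363 over the 6 libraries. Of 7 genes of the M-band and of ubiquitin ligases found there, 0 passed in limma in each comparison, and 1, 0 and 0 had an unadjusted *P* value under 0.05. Their medians were -0.21, 0.22 and -0.10, and of 9 genes for the length of thin filaments and for assembly they were -0.13, 0.11 and -0.12, all of which changed side under some scalings. Of these 9 genes 0 passed in limma in each comparison, and 1, 1 and 0 had an unadjusted *P* value under 0.05. The counts in this paragraph are from the fit without a replicate block. With a block, more of the other sarcomere genes passed between N and C, as given in the closing section. *Lmod2*, leiomodin, which lengthens thin filaments, had an FPKM of 611 and 583 on chow, 380.2 and 380.2 on the NASH diet and 581 and 459 with pemafibrate. Both N libraries lay below the other 4, with a log2 difference between N and C of -0.65 (adjusted *P* in limma = 0.113).

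Cardiomyocyte genes outside the sarcomere, from a list also chosen with earlier results of these data known, were set beside those within it. Of 18 such genes, among them those for calcium handling, creatine kinase and myoglobin, 0 passed in limma between N and C, 7 had an unadjusted *P* value under 0.05, and 11 had both N libraries below both C libraries, against 15% and 27% of all genes tested. With other scalings at most 1 of the 18 passed. The median log2 difference was -0.33, beside -0.35 for the 10 sarcomere genes. *Cox7a1*, a subunit of cytochrome c oxidase, had a difference of -0.75 (adjusted *P* in limma = 0.1204), further from 0 than that of *Myl3*, and *Ckm*, creatine kinase, and *Hspb7*, a small heat shock protein, had -0.63 and -0.61 (adjusted *P* in limma = 0.161 and 0.105). Between NP and N and between NP and C 0 passed in limma, 1 and 3 had an unadjusted *P* value under 0.05 (against 8.04% and 8.05% of all genes), and the medians were 0.15 and -0.13. Among the scalings, the median between N and C changed side only under centring on these same genes. Between NP and N it did so only under the centrings on these genes. Such centring fixes their centre, so these changes of side test nothing. Between NP and C the median also changed side under scaling to the same total and quantile normalization. The summed FPKM was 51568 and 52456 on chow, 40868 and 40418 on the NASH diet and 41937 and 44898 with pemafibrate, and myoglobin (*Mb*) was the most abundant in each library.

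Markers of other cells differed between the groups as well. Their lists too were chosen with earlier results of these data known, so that their counts are a description. Of 8 macrophage markers, 3 were higher in N than in C and 5 were lower in NP than in N in limma after Benjamini-Hochberg adjustment, against 1.55% and 1.39% of all genes that passed in either direction, and their summed FPKM was 347 and 314 on chow, 628 and 536 on the NASH diet and 259.9 and 228 with pemafibrate, with *Lyz2* the most abundant. With 1 library left out, at most 1 of the 8 passed between N and C and at most 2 between NP and N, and under other scalings up to 7 passed in each. Of 8 lymphoid markers 1 could be tested, *Nkg7*, which was higher in N than in C by 1.97 (adjusted *P* in limma = 0.00515) and lower in NP than in N (log2 difference -2.03, adjusted *P* in limma = 0.00465). Its mean FPKM was 0.146 in C, 3.49 in N and 0.101 in NP, so that here too the added 1 makes the log2 differences smaller than the ratios of the FPKM, and the summed FPKM of the 8 was 0.792 and 0.858 on chow, 8.02 and 7.84 on the NASH diet and 1.07 and 0.741 with pemafibrate. The 6 adipocyte markers summed to 1.89 and 8.26 on chow, 179 and 99.1 on the NASH diet and 14.4 and 82.7 with pemafibrate, and *Cfd* was the most abundant. Of 5 that could be tested 0 passed in limma between N and C, and all 5 had an unadjusted *P* value under 0.05, against 15% of all genes. With either replicate of NP left out 4 of them passed, and under other scalings up to 3 did. The sum of NP replicate 1 was closer to those of the C libraries than that of NP replicate 2, and *Ucp1* was listed at 0 in C replicate 1 and NP replicate 1. Of the fibroblast, endothelial and smooth muscle markers 0 passed in limma between N and C, and 2, 1 and 2 had an unadjusted *P* value under 0.05 (against the same 15%), with medians of 0.36, 0.07 and 0.19. Under other scalings up to 2, 1 and 1 passed. The fibroblast markers summed to 513 and 580.4 on chow, 669 and 676 on the NASH diet and 625 and 736 with pemafibrate, with *Dcn* the most abundant. The endothelial markers summed to 301 and 284 on chow, 351 and 268 on the NASH diet and 365 and 283 with pemafibrate, and the smooth muscle markers to 139 and 127 on chow, 145 and 175 on the NASH diet and 144 and 166 with pemafibrate. The 4 hemoglobin and red cell genes with a value summed to 30.7 and 161 on chow, 147 and 199.8 on the NASH diet and 155 and 156 with pemafibrate. Of the 3 red cell, 4 skeletal muscle and 6 liver genes that could be tested 0 passed in limma between N and C, and 0, 1 and 5 had an unadjusted *P* value under 0.05. Without replicate 1 of C 5 of the 6 liver genes passed there and between NP and C, 1 red cell gene passed between N and C without replicate 2 of C or replicate 1 of N, and under other scalings at most 1 skeletal muscle and 1 liver gene did. The skeletal muscle myosins *Myh1*, *Myh2* and *Myh4* were at or near 0, at no more than 0.0202 in each library, and the 11 skeletal muscle genes summed to between 4.47 and 7.003. The part of these cells in the values of the sarcomere genes was not tested.

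The log2 differences also varied with transcript length. Genes were placed in 5 classes by their longest annotated transcript. Between N and C, the 795 genes under 1000 bases had a median log2 difference of -0.17. The median was -0.077 for genes from 1000 to under 2000 bases, -0.026 from there to under 4000, 0.0071 from there to under 8000 and -0.018 for longer ones. *Myl2* (889 bases), *Myl3* (937), *Tnni3* (912) and *Tnnc1* (721) are in the shortest class. In it, 6.42% of the genes had a lower difference than *Myl2* and 9.31% a lower one than *Myl3*, and 26.8% lay below *Tnni3*. *Mybpc3* and *Ttn* are long, and 1.04% and 1.21% of the genes of their classes lay below them. Between the replicates, the shortest class was higher in replicate 2 by a median of 0.23 in N, 0.21 in NP and 0.063 in C. *Myl2* differed in the same way, by 0.52 and 0.60 in N and NP, and *Myh6* by -0.56 and -0.51. When each length class was centred on its own median in each library, a setting chosen after the data were seen, the differences between N and C were -0.67 for *Myl2* and -0.49 for *Myl3*. What underlies the trend with length was not tested.

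**Figure D5:**
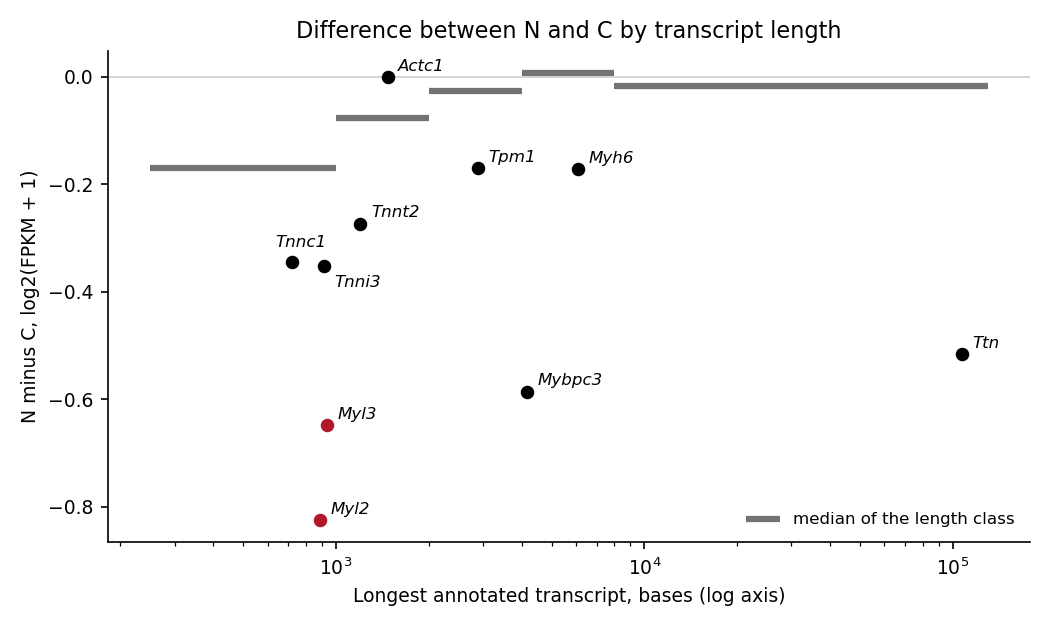
Log2 difference between the N and C groups of the 10 genes (points, the ventricular light chains in red) against the length of their longest annotated transcript on a log axis, with the median of all tested genes of each length class as grey bars. *Myl2* and *Myl3* lie below the bar of the shortest class at -0.17, and *Mybpc3* and *Ttn* lie further below their bars, at 0.0071 and -0.018, than *Tnnt2* does below its own, whereas under some scalings the 6 genes other than these 4 lie above 0.

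The genes most like *Myl2* and *Myl3* over the 6 libraries were sought by Pearson correlation of log2(FPKM + 1) among the 5751 other genes whose mean FPKM reached 10. For *Myl2* they were *Uqcc3* (0.999), *Cox6b1* (0.997), *Timm23* (0.996), *Tmem70* (0.993) and *Ndufa7* (0.993). For *Myl3* they were *Rtn4ip1* (0.996), *Myoz2* (0.994), *Mtif2* (0.993), *Ndufv3* (0.990) and *Tceb2* (0.989). These values describe 6 libraries that fall into groups of different depth. Since the genes were chosen by this likeness, a pattern shared with *Myl2* or *Myl3* follows from the choice. Of those for *Myl2*, *Uqcc3*, *Cox6b1* and *Ndufa7* have transcripts under 1000 bases, as *Myl2* does, and *Timm23* and *Tmem70* have longer ones. *Cox6b1*, a subunit of cytochrome c oxidase, had an FPKM of 2187 and 2299 on chow, 1596 and 1887 on the NASH diet and 1558 and 1930.0 with pemafibrate. Replicate 1 lay below replicate 2 in each group, as for *Myl2*, and the log2 difference between N and C was -0.37. *Myoz2*, from the Z-disc, was among the 5 genes most like *Myl3* and had a difference of nearly the same size, -0.61.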

How the data were processed

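Heart RNA of 3 groups of mice was sequenced as 6 libraries, 2 per group. The FPKM values were made by the authors, who aligned the reads to mm10 with TopHat2 2.0.13, Bowtie2 2.2.3 and SAMtools 0.1.19 and computed FPKM with Cufflinks 2.2.1, as deposited. Read counts are not among the files, so depth was estimated from steps between the FPKM of 4107 genes for which GENCODE M21 lists 1 transcript. Groups follow the sample labels.

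A linear model of 3 groups with 3 residual degrees of freedom was fitted with limma 3.58.1 in R 4.3.3 to log2(FPKM + 1) of the 12923 genes whose mean FPKM reached 0.5. It used empirical Bayes moderation with a trend in the variance and Benjamini-Hochberg adjustment over all 12923 genes, with a threshold of 0.05. The test was checked on simulated data with changes larger than any difference of the 10 genes, so that the check does not cover differences of their size. Tables were computed with Python 3.11.15, numpy 2.4.6, pandas 2.3.3 and matplotlib 3.10.9. The genes named are the 10 genes, those of the sarcomere and marker lists, and the 5 most correlated with *Myl2* and with *Myl3*. Members and lists were chosen with earlier results of these data known. Promoter windows and gene positions are from RefSeq and transcript lengths from GENCODE. The alternatives changed the pseudocount, the filter, the scaling and the design, or left out 1 library at a time.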

Additional observations from a re-analysis of the deposited data

How the results depend on the processing

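The limits lie in 2 libraries per group, in a depth that differs between chow and the other groups, and in FPKM without counts. They also lie in the atrial genes that differ between chow and the other groups, the liver transcripts of C replicate 2 and the trend with transcript length. Under other settings 566 values of the 10 genes kept their side of the adjusted threshold in limma and 4 passed it, all with a replicate block. The difference between replicates 2 and 1 had a Pearson correlation across genes, which are not independent, of 0.0471 between C and N, 0.124 between C and NP and 0.458 between N and NP. The labels name no shared animal, litter or batch, although the names under which N and NP were supplied match by replicate. The block was run as an alternative. With the replicate block, 328 of the 12923 genes tested passed between N and C. Of the 10 genes, 1 did, *Myl3* (adjusted *P* in limma = 0.0339). With a block applied to N and NP alone, 1100 of the 12923 genes tested passed between N and C. Of the 10 genes, 3 did, *Myl2*, *Myl3* and *Mybpc3* (adjusted *P* = 0.0136, 0.0198 and 0.0323 in limma). Over all settings, the adjusted *P* values of these 3 genes ran from 0.0136 to 0.853, 0.0198 to 0.603 and 0.0323 to 0.679. That block, centring by transcript length class and centring on the deviation of cardiomyocyte genes were chosen after seeing the data.

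Between N and C, 200 of the 12923 genes tested passed, and 328 and 1100 with the blocks and 1386 with deviation centring. Of the 43 other sarcomere genes, 3 passed between N and C, and 6 with the replicate block, 15 with the block for N and NP alone and 6 with deviation centring. For NP and N 0 passed in limma (4 at an unadjusted *P* value under 0.05), against 1 with deviation centring and 1 with the block for N and NP alone. Between NP and C 3 passed, 0 with no filter on low values, 1 with only 2 groups in the model and from 1 to 3 with 1 library left out.

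Over all genes, the count between N and C was 200, and 307 with the same total, 347 with cardiomyocyte centring, 1386 with deviation centring, 328 and 1100 with the blocks, and 49 to 183 with 1 library left out. For NP and N it was 179, and 270 with deviation centring, 301 with the block for N and NP alone, 78 with only 2 groups and 67 to 108 with 1 library left out. Between NP and C it was 5, and 12 with a pseudocount of 0.1, 0 with no filter, 13 with the same total, 8 with length centring, 8 with deviation centring, 20 and 55 with the blocks, and 5 to 101 with 1 library left out.

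Isoform ratios, as log2 differences with 1 library left out, ran from -9.42 to -7.93 (N and C) and -9.35 to -7.86 (NP and C) for *Myl2* to *Myl7*, and from -8.36 to -7.10 and -8.33 to -7.06 for *Myl3* to *Myl4*. They ran from -0.84 to -0.20 (NP and N) and -0.52 to 0.12 (NP and C) for *Myh6* to *Myh7*, and from -0.66 to 0.73 and -1.01 to 0.38 (N and C, NP and C) for *Actc1* to *Acta1*. *Tnni3* to *Tnni1* was -0.97 and -0.87, and -1.93 and -1.85 with a pseudocount of 0.1, since *Tnni1* is low. For the other changes the cause was not tested.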
